A study of Mus musculus with 6 samples.

Results

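The nuclear genes of oxidative phosphorylation (OXPHOS) were examined by mRNA-seq in day 4 embryoid bodies (EBs, clumps of stem cells that differentiate in suspension). They were chosen by symbol: those beginning with Nduf followed by a, b, c, s or v and a number, the 4 Sdh genes, those beginning with Uqcr or Atp5, and those beginning with Cox followed by a subunit number from 4 to 8. This rule found 84 of the 23353 genes listed. By symbol, 37 belonged to complex I, 4 to complex II, 8 to complex III, 18 to complex IV and 17 to complex V. The wildtype group was the parental W9.5 mouse ES cell line, with 3 libraries. The EVX1-Δfs group was clone 14, a single CRISPR-edited clone of W9.5 with frameshift deletions in both alleles of Evx1 in the homeodomain-encoding part of exon 2, also with 3 libraries. For both, EBs were kept in serum for 4 days, with LIF, which holds stem cells undifferentiated, withdrawn. With 1 clone, an effect of the edit and any other property of that clone cannot be told apart.

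OXPHOS is the route by which mitochondria make most of the ATP of a respiring cell. Complex I (NADH dehydrogenase) and complex II (succinate dehydrogenase) pass electrons to ubiquinone, complex III (ubiquinol-cytochrome c reductase) passes them to cytochrome c, and complex IV (cytochrome c oxidase) passes them to oxygen. Complexes I, III and IV pump protons out of the matrix, and complex V (ATP synthase) makes ATP as the protons flow back. Some pluripotent cells are known for a strong reliance on glycolysis, and OXPHOS often gains in weight as such cells differentiate. Neither glycolysis nor respiration was measured here. Complexes I, III, IV and V also contain subunits encoded in mitochondrial DNA, which in complex V lie in the membrane part. None of those 13 genes was analysed here.

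Few of the 79 genes tested differed between the genotypes: 1 was lower in EVX1-Δfs EBs and none was higher. That is 1.27% of the genes tested, beside 5.02% of all 13136 genes (2.08% higher and 2.95% lower). Calls were made with limma on log2(normalized count + 1) at a Benjamini-Hochberg adjusted p under 0.05, and each fold change on that scale sets EVX1-Δfs over wildtype. With the replicate number as a block, which called 1.69% of all genes, 0 of the 79 were called by limma, and 0 were lower without replicate 1 of wildtype, replicate 3 of wildtype or replicate 1 of EVX1-Δfs. The highest fold changes, none of them called, were in complex IV and belonged to Cox7a1 and Cox6b2, paralogues known from particular tissues. The median log2 fold change of the 79 genes was −0.11, beside 0.00 for all genes tested. The other 5 genes, Ndufs5, Cox6a2, Cox7b2, Cox8b and Cox8c, did not reach a normalized count of 10 in 3 libraries.

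The libraries held 7597879 to 9914471 reads assigned to genes. Evx1 itself had normalized counts of 2358, 2176 and 2400 in wildtype and 2354, 2516 and 2012 in EVX1-Δfs EBs. Its groups overlapped (log2 fold change −0.02 ± 0.11 SE, adjusted p = 0.950 in limma), and a count per gene does not show a small frameshift, so it does not check the genotype. Markers of gastrulating EBs were abundant in every library, but 5 of 7 (T, Mixl1, Eomes, Mesp1 and Wnt3) were lower in EVX1-Δfs EBs. Their 7 levels summed to 14290 to 17126 in wildtype and 9918 to 12483 in EVX1-Δfs EBs, without overlap. With the replicate block, T (adjusted p = 0.0566 in limma) and Eomes (0.0585) were no longer called. None of 7 pluripotent cell markers was called by limma, 4 had an unadjusted p under 0.05, all higher, and 5 of 7 (71.4%, beside 12.2% of all genes) had every EVX1-Δfs library above every wildtype library. The adjusted p of Nanog, Sox2, Zfp42 and Esrrb lay between 0.0544 and 0.0559 in limma. The tests of edgeR and DESeq2 called Esrrb higher, and the paper counts Nanog among its upregulated genes. After GC and length trends were removed, limma called Sox2 (0.49, adjusted p = 0.0307) and Esrrb (0.51, adjusted p = 0.0352) higher. The sums of the 7 levels (12560 to 18684 and 14205 to 17027), in which Pou5f1 and Tdgf1 are the most abundant, overlapped. Whether these marker differences took part in the results below was not tested. In these bulk samples, fewer cells of a type and less RNA per cell cannot be told apart.

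The promoters of these genes were read first, because the 5 complexes lie on many chromosomes and are known to share regulators. NRF1, the ETS factor GABP and YY1 are established activators of OXPHOS genes. The window was the RefSeq promoter on GRCm38.p6, from 250 bases before to 50 bases after the annotated start, and 69 of the 84 genes had an entry. The letters searched, on both strands, were GCGC and TGCGC parted by any 1 base for NRF1, CCGGAAG for ETS factors and AAGATGGCG for YY1. The NRF1 letters were present in 17 of the 69 (24.6%), beside 11.2% of the 9772 tested genes with a promoter and 5.19% of all 27025 promoters by symbol. The YY1 letters were present in 8 (11.6%, beside 3.48% and 1.64%), 5 of them in complex I and 3 in complex V. The ETS letters were present in 16 (23.2%, beside 19.3% and 9.93%). By complex, the NRF1 letters stood in 7 of 32 promoters for complex I, 2 of 3 for complex II, 1 of 5 for complex III, 1 of 13 for complex IV and 6 of 16 for complex V. A match is a description of the letters and not of binding.

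The 3 promoters below display how these letters sit around the start, with matches in capitals. Ndufs7 (chr10:80249199-80249498, plus strand) was chosen because it had a low fold change, called by DESeq2, and its YY1 letters begin at base 25 after the start. Sdha (chr13:74350191-74350490, minus strand), the catalytic flavoprotein of complex II, holds NRF1 letters 3 times, beginning 98, 55 and 10 bases before the start. Uqcrc1 (chr9:108936398-108936697, plus strand), the gene of complex III with the highest level, holds them at bases 6 and 31 after the start.
Ndufs7: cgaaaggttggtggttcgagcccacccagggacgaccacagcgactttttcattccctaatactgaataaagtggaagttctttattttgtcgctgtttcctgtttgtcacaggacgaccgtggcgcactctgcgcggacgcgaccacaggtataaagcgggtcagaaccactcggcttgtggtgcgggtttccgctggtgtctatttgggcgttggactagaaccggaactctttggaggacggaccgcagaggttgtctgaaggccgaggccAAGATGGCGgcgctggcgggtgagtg
Sdha: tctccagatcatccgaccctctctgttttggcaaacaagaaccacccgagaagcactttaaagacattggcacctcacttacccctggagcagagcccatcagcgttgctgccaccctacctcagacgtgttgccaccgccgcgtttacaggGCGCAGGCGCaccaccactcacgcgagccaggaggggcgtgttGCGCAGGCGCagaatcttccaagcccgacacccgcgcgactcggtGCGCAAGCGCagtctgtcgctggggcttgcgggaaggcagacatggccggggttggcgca
Uqcrc1: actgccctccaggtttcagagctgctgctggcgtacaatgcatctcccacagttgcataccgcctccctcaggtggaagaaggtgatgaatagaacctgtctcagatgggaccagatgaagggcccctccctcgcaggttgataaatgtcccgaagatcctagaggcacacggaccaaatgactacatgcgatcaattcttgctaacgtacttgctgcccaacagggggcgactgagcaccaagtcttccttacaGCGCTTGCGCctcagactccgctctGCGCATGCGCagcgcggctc

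Other common promoter letters gave another picture. GGGCGG, the GC box, was found in 28 of the 69 (40.6%), fewer than among tested genes (70.8%) and close to all promoters (38.2%). CCAAT was in 31 (44.9%, beside 43% and 41.1%) and TATAAA in 7 (10.1%, beside 8.37% and 15.7%). Among the promoters of these genes, matches to 2 different sets of letters overlapped only in Ndufs3 (ETS and GC box). Of the factors themselves, Nrf1 had 861, 800.8 and 803 normalized counts in wildtype and 728, 644 and 729.9 in EVX1-Δfs EBs. Its EVX1-Δfs libraries were all below the wildtype libraries, but the difference was not called (log2 fold change −0.23 ± 0.11, adjusted p = 0.226 in limma). Gabpa, which encodes the DNA-binding subunit of GABP, had 328.1, 329.2 and 336.6 in wildtype and 344.5, 354.1 and 446.9 in EVX1-Δfs EBs. Its EVX1-Δfs libraries were all above the wildtype libraries, and the difference was not called (0.19, adjusted p = 0.396 in limma). Yy1 had a fold change of 0.06 (adjusted p = 0.831 in limma), and its groups overlapped. Ppargc1a, a coactivator of mitochondrial biogenesis in oxidative tissues, was at 0 to 3.74 normalized counts. Of 20 tested regulators of mitochondrial gene expression none was called by limma. An unadjusted p under 0.05 was reached by 3 (2 higher and 1 lower, 15%, beside 23.1% of all genes). Groups did not overlap for 3 higher and 3 lower (30%, beside 26.9% of all genes). The tests of edgeR, DESeq2 and limma after GC and length trends were removed each called 1, the pluripotency factor Esrrb, as higher. Over all genes, these tests called 5.22%, 6.89% and 2.15% in either direction.

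The genes were abundant. On the scale of normalized counts per kilobase of coding transcript, their median stood at percentile 95.8 of 20275 coding genes, and 63 of the 79 tested genes were above percentile 90. Their median level was 1010 per kilobase, beside 24.6 for all coding genes. Together they took 1.19%, 1.15% and 1.24% of all normalized counts in wildtype and 1.17%, 1.16% and 1.14% in EVX1-Δfs EBs. These shares overlapped. The highest level in each complex was that of Ndufa7 (3244 ± 264 per kilobase in wildtype, SD, n = 3), Sdhb (1829 ± 274), Uqcrc1 (2926 ± 307), Cox4i1 (10505 ± 824) and Atp5b (8655 ± 1219). Ndufa7 is a supernumerary subunit of complex I, Sdhb the iron-sulfur subunit of complex II, Uqcrc1 a core protein of complex III, Cox4i1 the common isoform of subunit 4, and Atp5b the catalytic beta subunit of the F1 head. Uqcr11 (2865 ± 229) did not differ from Uqcrc1 beyond the spread. Levels within a complex were far apart although its protein subunits are assembled in fixed proportions. These are RNA levels, divided by the median length of the annotated coding transcripts, so long annotated transcripts lower them. Ndufb2 was divided by 2413 bases and Ndufs6 by 568, at mean normalized counts of 282 and 314.9. The lowest tested symbol was Atp5s, at 15.5 ± 2.74 per kilobase.

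**Figure D1:**
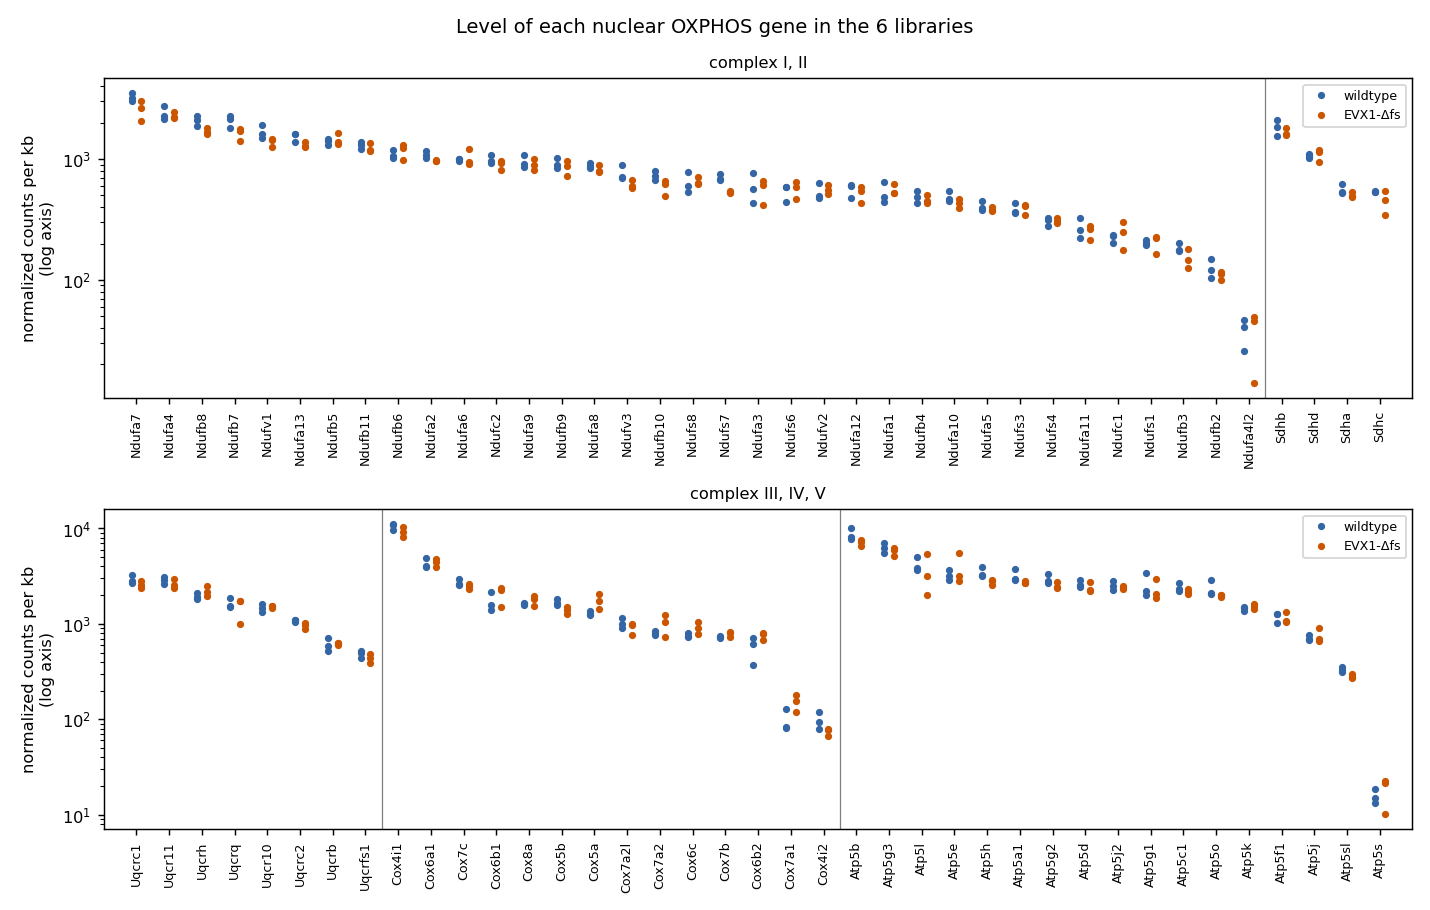
Normalized counts per kilobase of coding transcript (log axis) of 78 of the tested genes in the 3 wildtype (blue) and 3 EVX1-Δfs (orange) libraries, ordered by mean level within each complex. Cox4i1 and Atp5b stood at 6496 or above in every library, while Atp5s, Ndufa4l2, Cox4i2, Ndufb2 and Cox7a1 had the lowest mean levels.

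In complex I, 36 genes were tested and the median log2 fold change was −0.09, with 26 of 36 below 0. Its subunits did not move as one. Ndufs7, an iron-sulfur subunit near the ubiquinone site, had 583, 596 and 656 normalized counts in wildtype and 473, 458 and 466 in EVX1-Δfs EBs. Its groups did not overlap (−0.39 ± 0.12), and it was not called by limma (adjusted p = 0.0537) but was by DESeq2 (adjusted p = 0.0297). The latter test called 6.89% of the 11623 genes to which it gave an adjusted p. Ndufv1, which holds the NADH-binding flavin site, had 1776, 1638 and 2107 in wildtype and 1596, 1570 and 1386 in EVX1-Δfs EBs, again without overlap (−0.27 ± 0.12, adjusted p = 0.164 in limma). Ndufs1, Ndufs3, Ndufs8 and Ndufv2, which carry iron-sulfur clusters or, for Ndufs3, scaffold the same peripheral arm, had fold changes from −0.01 to 0.07. Their groups overlapped.

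Among the supernumerary subunits of complex I, which surround the core, 27 were tested. In limma 6 had an unadjusted p under 0.05, all lower (22.2%, beside 12.4% lower and 23.1% in either direction over all genes). Ndufb7, an intermembrane-space subunit singled out after its values were seen, had 1407, 1117 and 1348 normalized counts in wildtype and 1098, 1066 and 874 in EVX1-Δfs EBs. The groups did not overlap (−0.35 ± 0.12, adjusted p = 0.0915 in limma). Ndufa7, the most abundant, had 1666, 1521 and 1416 in wildtype and 1432, 1244 and 976 in EVX1-Δfs EBs, with 1 pair of libraries overlapping (−0.35 ± 0.13, adjusted p = 0.109 in limma). The highest fold change was that of Ndufa1, a small membrane subunit encoded on the X chromosome, which had 272, 203 and 184 in wildtype and 261, 219.9 and 219 in EVX1-Δfs EBs. Its groups overlapped (0.10 ± 0.16, adjusted p = 0.743 in limma). In all, 8 of the 36 complex I genes had every EVX1-Δfs library below every wildtype library (22.2%) and none had the reverse, beside 14.7% lower and 12.2% higher over all genes tested, so non-overlap in either direction was no more frequent than the 26.9% of all genes.

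Ndufs5, another supernumerary subunit, was listed at 0 in 5 libraries and at 1.87 in EVX1-Δfs replicate 1. A count of 0 allows up to 3 reads. Of its 525-base coding transcript, 96% matched another place in NCBIM37 (chromosome 16, 42955673 to 42956176, 99.6% identity over 504 bases). A count that depends on unique placement would leave its level uncertain. Near-identical copies covering at least 50% of the transcript were found for 19 of the 84 genes, and 56 had no match at all. Of these 19, 18 reached the level needed for testing. Among them were Atp5g2 (100% matched, mean normalized count 1770) and Atp5l (96.3% matched, 1978). Whether the copy took part in the low value of Ndufs5 was not tested.

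Complex II, the only complex with all of its subunits encoded in the nucleus, showed no call by limma and no unadjusted p under 0.05 among its 4 genes. Sdha had 1524, 1538 and 1787 normalized counts in wildtype and 1444, 1554 and 1406 in EVX1-Δfs EBs (−0.14 ± 0.11, adjusted p = 0.486 in limma). Sdhb had 2114, 1764 and 2389 in wildtype and 2075, 1798 and 1838 in EVX1-Δfs EBs (−0.13 ± 0.12, adjusted p = 0.562 in limma). Both catalytic subunits overlapped between groups. Sdhc, a membrane anchor, had 441, 433 and 433 in wildtype and 439.7, 373 and 282 in EVX1-Δfs EBs (−0.28 ± 0.14, adjusted p = 0.250 in limma). Sdhd, the other anchor, had 1417, 1318 and 1376 in wildtype and 1467, 1224 and 1534 in EVX1-Δfs EBs (0.03 ± 0.11, adjusted p = 0.891 in limma). EVX1-Δfs replicate 3 held both the lowest Sdhc and the highest Sdhd. The 95% intervals of all 4 genes lay within 1.5-fold in either direction.

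In complex III, none of 8 genes was called by limma or reached an unadjusted p under 0.05, and the median fold change was −0.14. Uqcrc1, a core protein, had 3810, 3594 and 4390 normalized counts in wildtype and 3779, 3445 and 3165 in EVX1-Δfs EBs (−0.18 ± 0.12, adjusted p = 0.360 in limma). The other core protein, Uqcrc2, was the only gene of this complex whose groups did not overlap, at 1915, 2018 and 2008 in wildtype and 1792, 1630 and 1900 in EVX1-Δfs EBs (−0.16 ± 0.11, adjusted p = 0.384 in limma). It was singled out after its values were seen. Uqcrfs1, the Rieske iron-sulfur protein, had a fold change of −0.15 ± 0.12 (adjusted p = 0.484 in limma). The lowest and highest were Uqcrq, a small subunit, at −0.18 ± 0.16, and Uqcrh, the hinge protein beside cytochrome c1, at 0.16 ± 0.12. Uqcrq had 945, 759 and 776 in wildtype and 866, 868 and 505 in EVX1-Δfs EBs, and without EVX1-Δfs replicate 3 its value turned to 0.08. Uqcrh had 918, 867 and 1006 in wildtype and 1176, 1020 and 929 in EVX1-Δfs EBs.

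Complex IV had values on both sides. Of its 14 tested genes none was called by limma. An unadjusted p under 0.05 was reached by 4 (3 higher and 1 lower, 28.6%, beside 23.1% of all genes tested). Its median was 0.11, with 9 of 14 above 0, beside 18 of 65 above 0 in the other complexes. This grouping is by symbol and leaves Ndufa4 and Ndufa4l2 (−0.05 and −0.20) in complex I, though Ndufa4 is now regarded as a subunit of complex IV. Cox5a and Cox5b, 2 nuclear subunits near the catalytic core, went different ways. Cox5a (chromosome 9, 57369039 to 57380231, plus strand) had 935, 864 and 868 normalized counts in wildtype and 1414, 1209 and 985 in EVX1-Δfs EBs. It was the only one of the 79 genes with every EVX1-Δfs library above every wildtype library, beside 12.2% of all genes tested. Its fold change was 0.42 ± 0.13 (95% interval 0.16 to 0.68, adjusted p = 0.0523 in limma), not called, and DESeq2 (0.0277) and edgeR's quasi-likelihood test (0.0382) called it at their adjusted p. The last of these called 5.22% of its 13153 genes. The limma adjusted p of Cox5a was 0.0753 with the replicate block and 0.0658 after GC and length trends were removed. Its fold change was 0.30 without EVX1-Δfs replicate 1 (adjusted p = 0.238 in limma) and 0.56 without EVX1-Δfs replicate 3 (adjusted p = 0.0270 in limma). Cox5b had 824, 868 and 950.4 in wildtype and 730.1, 778 and 658 in EVX1-Δfs EBs. Its EVX1-Δfs libraries were all lower (−0.29 ± 0.12, adjusted p = 0.141 in limma), and 2 near-identical copies lie elsewhere in the genome. Both genes were singled out after their values were seen.

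Several subunits of complex IV have paralogues that are known from particular tissues. Cox7a1, the heart and skeletal muscle isoform of subunit 7a, had 46.9, 30.1 and 29.8 normalized counts in wildtype and 65.4, 56.4 and 43.8 in EVX1-Δfs EBs, the highest fold change of the 79 genes (0.63 ± 0.26, 95% interval 0.10 to 1.17, adjusted p = 0.145 in limma). The groups overlapped through 1 pair of libraries. It held 10.8% ± 2.24 of the level per kilobase of Cox7a1 and Cox7a2 together in wildtype (SD, n = 3) and 13.3% ± 0.737 in EVX1-Δfs EBs, and these shares overlapped too. Cox7a2, the common isoform, had 629, 599 and 582 in wildtype and 923, 789 and 553 in EVX1-Δfs EBs (0.29 ± 0.15, adjusted p = 0.229 in limma). Its value was 0.13 without EVX1-Δfs replicate 1 and 0.50 without EVX1-Δfs replicate 3. The 8 cardiac and skeletal muscle markers summed to 274 to 328 in wildtype and 331 to 349.6 in EVX1-Δfs EBs. The most abundant were Tnni3 (85.9 to 151.1) and Myh6 (61.9 to 142.0), while Tnnt2, Ckm and Myl2 were at or under 7.65 in every library. None of the 5 tested was called by limma. An unadjusted p under 0.05 was reached by 1, Myh7, which was higher but at 2.66 to 18.0 normalized counts. Whether muscle cells were present or took part in the Cox7a1 values was not tested.

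Cox6b2, a paralogue known from testis, was well measured. It had 394, 343 and 203 normalized counts in wildtype and 444, 372 and 433 in EVX1-Δfs EBs (0.46 ± 0.18, 95% interval 0.09 to 0.83, adjusted p = 0.122 in limma), and its groups overlapped. Wildtype replicate 3 stood lowest, and the gene was called higher by limma without wildtype replicate 1 (0.65, adjusted p = 0.0406). Without wildtype replicate 3 the value dropped to 0.18 (adjusted p = 0.509 in limma). Its share of the Cox6b family was 24.7% ± 3.79 in wildtype and 27.6% ± 5.98 in EVX1-Δfs EBs. The common Cox6b1 had 1100, 789 and 703 in wildtype and 1200, 1135 and 756 in EVX1-Δfs EBs (0.25 ± 0.16, adjusted p = 0.362 in limma).

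The remaining tissue-restricted forms were rare. Cox4i2, the hypoxia-inducible lung isoform, had 58.4, 69.0 and 87.0 normalized counts in wildtype and 56.0, 48.5 and 57.2 in EVX1-Δfs EBs. The EVX1-Δfs libraries were all lower (−0.39 ± 0.22, adjusted p = 0.297 in limma), and Cox4i2 was 0.928% ± 0.197 of the Cox4i family in wildtype and 0.797% ± 0.0591 in EVX1-Δfs EBs. Cox4i1 had 7581, 6506 and 7312 in wildtype and 7043, 5548 and 6193 in EVX1-Δfs EBs (−0.19 ± 0.12, adjusted p = 0.356 in limma). The muscle forms Cox6a2 and Cox8b were at 0 in all 6 libraries except a value of 0.934 for Cox6a2 in EVX1-Δfs replicate 1, the testis form Cox8c was at 0 in all 6, and Cox7b2 was at or under 1.87. Their common counterparts Cox6a1 (0.04 ± 0.12, adjusted p = 0.875 in limma) and Cox8a (0.12 ± 0.12, adjusted p = 0.577 in limma) overlapped between groups. Cox7a2l, a supercomplex assembly factor, had a fold change of −0.17 ± 0.13 (adjusted p = 0.433 in limma).

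Ndufa4 carries a complex I symbol but is now regarded as a subunit of complex IV. It had 1349, 1118 and 1064 normalized counts in wildtype and 1095, 1216 and 1079 in EVX1-Δfs EBs (−0.05 ± 0.12, adjusted p = 0.823 in limma). Its hypoxia-inducible paralogue Ndufa4l2 had 24.9, 38.9 and 44.7 in wildtype and 43.9, 47.4 and 13.3 in EVX1-Δfs EBs (−0.20 ± 0.37, adjusted p = 0.787 in limma). It was 1.60% ± 0.600 of their summed level per kilobase in wildtype and 1.53% ± 0.783 in EVX1-Δfs EBs. Both genes overlapped between groups.

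**Figure D2:**
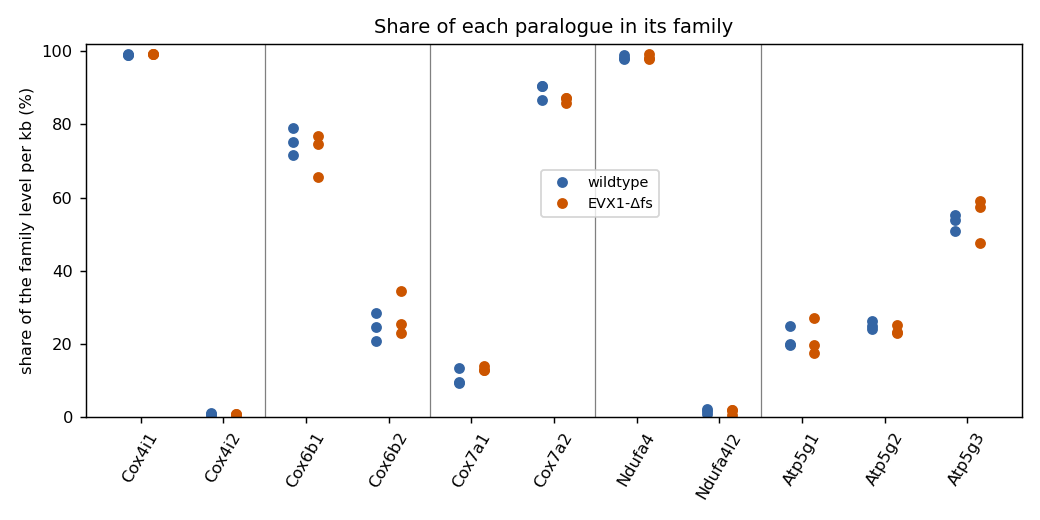
Share of each paralogue in the summed level per kilobase of its family (percent), with 1 point per library, wildtype in blue and EVX1-Δfs in orange. In all 5 families the points of the 2 groups overlap, and Cox4i1, Cox6b1, Cox7a2, Ndufa4 and Atp5g3 are the main forms in every library.

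Complex V had 13 of 17 genes below 0 and a median of −0.14, with no call by limma. The 17 include Atp5s and Atp5sl, which match by symbol but encode no subunit of the enzyme. An unadjusted p under 0.05 was reached by 3 genes, all lower (17.65%, beside 12.4% lower and 23.1% in either direction over all genes). They were Atp5b, Atp5h and Atp5sl. In the F1 head, Atp5b had 15718, 14804 and 19227 normalized counts in wildtype and 13837, 14393 and 12447 in EVX1-Δfs EBs, and Atp5a1, the alpha subunit, had 7325, 7096 and 9303 and 6667, 6910 and 6660. Every EVX1-Δfs library was below every wildtype library for both, with wildtype replicate 3 standing above the other 2. The fold change of Atp5b was −0.28 ± 0.14 (adjusted p = 0.209 in limma) and that of Atp5a1 −0.22 ± 0.12 (adjusted p = 0.297 in limma). Atp5e, the epsilon subunit of the central stalk, had the highest value (0.19 ± 0.17, adjusted p = 0.519 in limma), with 1538, 1340 and 1225 in wildtype and 2335, 1350 and 1196 in EVX1-Δfs EBs. It rested on EVX1-Δfs replicate 1, without which it was −0.10.

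In the peripheral stalk, Atp5h (subunit d) had 2073, 2037 and 2548 normalized counts in wildtype and 1629, 1865 and 1821 in EVX1-Δfs EBs, with no overlap (−0.32 ± 0.12, adjusted p = 0.103 in limma). Atp5o, the stalk subunit that gives oligomycin sensitivity, had 1172, 1149 and 1615 and 1131, 1127 and 1070, also without overlap (−0.22 ± 0.13, adjusted p = 0.291 in limma). Atp5o shares 287 exon bases on its strand with another gene in the annotation, and Atp5h has 3 near-identical copies. Atp5f1 (subunit b) and Atp5j (subunit F6) had fold changes of −0.04 and 0.07 and overlapped.

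The c ring, the rotor that protons turn, is built from 1 mature protein encoded by 3 genes. Atp5g3 gave 53.4% ± 2.19 of their level per kilobase in wildtype and 54.7% ± 6.20 in EVX1-Δfs EBs, Atp5g2 25.1% ± 1.11 and 23.8% ± 1.31, and Atp5g1 21.5% ± 3.00 and 21.5% ± 4.96. The order of their mean shares was the same in both genotypes, although Atp5g1 and Atp5g2 overlapped within each. Their fold changes were −0.10 ± 0.12, −0.21 ± 0.11 and −0.15 ± 0.17 (adjusted p from 0.280 to 0.645 in limma). Atp5g2 matched other places over 100% of its transcript and Atp5g1 over 88.1%, so the shares of all 3 genes are uncertain. Atp5l (subunit g, at the dimer interface) had the widest spread within the groups among the genes of complex V: 1879, 1984 and 2550 in wildtype and 1639, 1038 and 2780 in EVX1-Δfs EBs (−0.34 ± 0.21, adjusted p = 0.347 in limma). It has 10 near-identical copies. Without EVX1-Δfs replicate 2 its value was 0.01, and without EVX1-Δfs replicate 3 it was −0.70 and called by limma (adjusted p = 0.0176).

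Atp5s and Atp5sl match the symbol rule but encode no subunit of the enzyme. Atp5s, a coupling-factor-like protein, was at 14.9 to 33.4 normalized counts with overlapping groups (0.14 ± 0.34, adjusted p = 0.842 in limma). Atp5sl had 684, 609 and 638 in wildtype and 537, 579 and 516 in EVX1-Δfs EBs, with no overlap (−0.24 ± 0.12, adjusted p = 0.215 in limma).

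**Figure D3:**
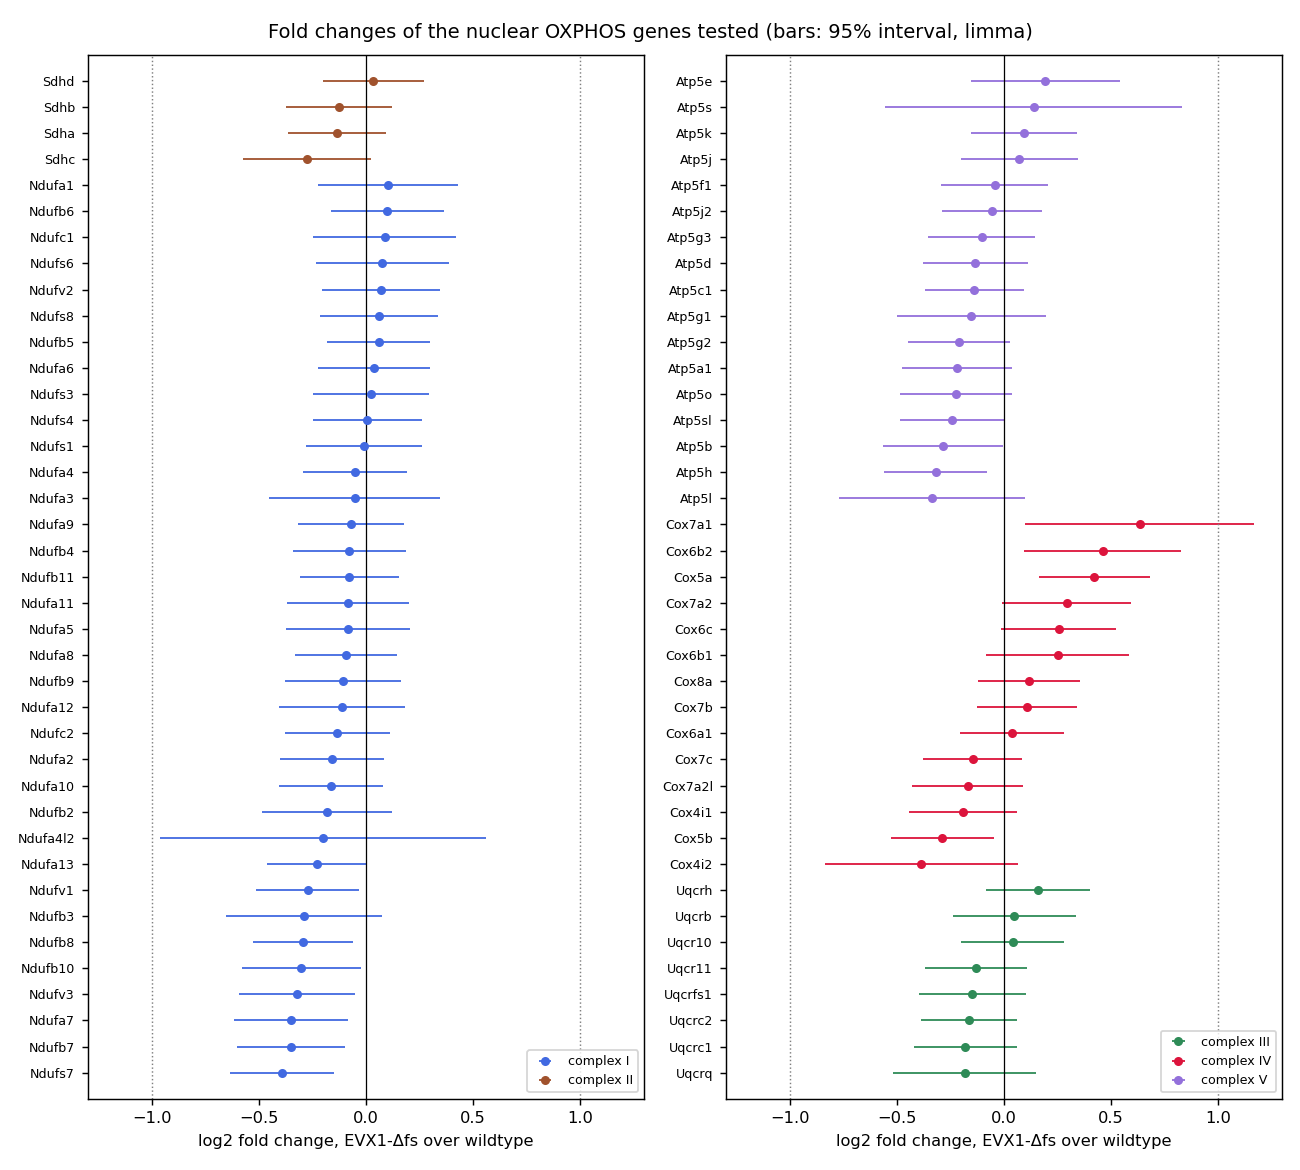
Log2 fold change (EVX1-Δfs over wildtype, log2(normalized count + 1) scale) with its 95% interval from limma for 78 of the tested genes, by complex. Solid line, no difference; dotted lines, 2-fold. The interval of Cox7a1 alone passes a dotted line.

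Over all 79 genes, 52 (65.8%) had a fold change below 0, beside 49.9% of all genes tested. An unadjusted p under 0.05 was reached by 16 (3 higher and 13 lower, 20.3%), beside 23.1% of all genes tested (10.7% higher and 12.4% lower). Groups did not overlap for 17 (1 higher and 16 lower, 21.5%), beside 26.9% of all genes (12.2% higher and 14.7% lower). The 95% interval lay within 2-fold in either direction for 78 of the 79 genes, with Cox7a1 the exception, beside 86.9% of all genes. It lay within 1.5-fold for 64 of the 79, beside 56.7%. DESeq2 called 3 of the 79, among them Ndufs7 and Cox5a, and edgeR 2, among them Cox5a. Over all their genes these tests called 6.89% and 5.22%. The median standard error was 0.12, beside 0.15 for all genes.

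The negative median of the 79 genes rested in part on 1 library. Expressed as the median over the 79 genes of the difference from the wildtype mean on the log2 scale, the libraries stood at −0.04, −0.08 and 0.11 in wildtype and −0.07, −0.01 and −0.15 in EVX1-Δfs EBs. Wildtype replicate 3 was the highest and the groups overlapped. Without that library the median fold change was −0.03, while without each of the others it lay between −0.15 and −0.07. For complex I the median was −0.04 without wildtype replicate 3 and between −0.14 and −0.07 without each of the others. For complex II it was −0.04 without wildtype replicate 3 and −0.21 without wildtype replicate 2. For complex III it was −0.02 without EVX1-Δfs replicate 3 and −0.08 without wildtype replicate 1. In complex V the libraries stood at −0.07, −0.11 and 0.17 in wildtype and −0.24, −0.15 and −0.19 in EVX1-Δfs EBs, without overlap, and the median was −0.06 without wildtype replicate 3. In complex IV they stood at 0.03, −0.03 and 0.00 in wildtype and 0.16, 0.16 and −0.06 in EVX1-Δfs EBs, and the median stayed between 0.10 and 0.16 whichever library was left out. Scaling to total reads, which lifted the median of all genes by 0.09, brought the median of the 79 genes to −0.01 and that of complex I to 0.00, and left complex IV at 0.21 and complex V at −0.04.

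**Figure D4:**
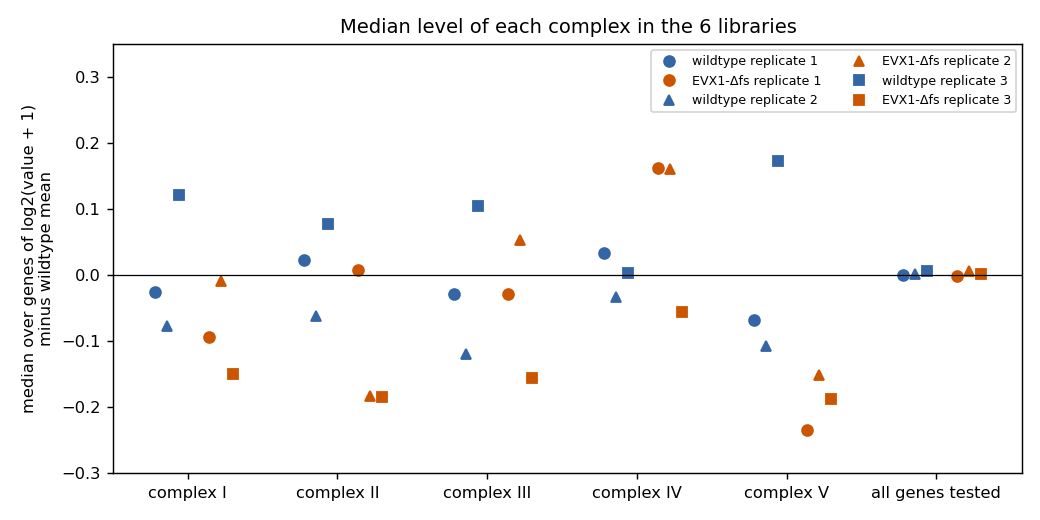
Median over the tested genes of each complex of the log2(normalized count + 1) value minus its wildtype mean, with 1 symbol per library (wildtype blue, EVX1-Δfs orange, shape for the replicate number). All genes tested lie at 0 in every library. Wildtype replicate 3 is the highest wildtype library in complexes I, II, III and V, and 2 EVX1-Δfs libraries stand at 0.16 in complex IV.

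Fold changes over all genes fell with the GC content of the exons (Spearman −0.46 across 12948 genes, which are not independent) and with mean count (−0.27), and rose with exon length (0.18). Across the 79 genes these values were −0.21, −0.27 and −0.32. Their exons had a median GC content of 50.5%, beside 50.3% for all genes, but were short, with a median length of 1287 bases beside 3781. After removal of both trends the median fold change of the 79 genes was −0.10, that of complex IV 0.20 and that of complex V −0.15. None of the 79 was then called by limma, beside 2.15% of the 12948 genes.

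**Figure D5:**
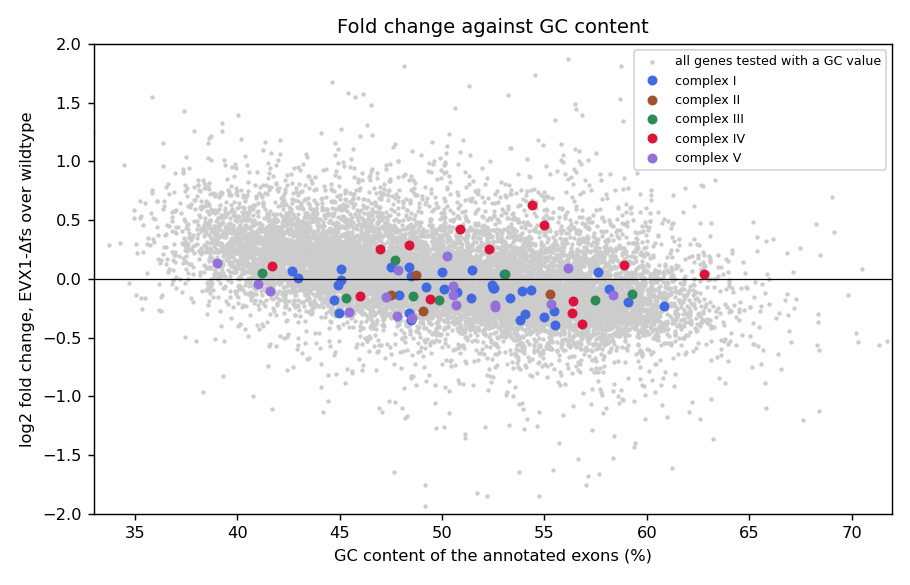
Log2 fold change (EVX1-Δfs over wildtype) against the GC content of the annotated exons (percent) for all tested genes with a GC value (grey) and for 78 genes of the 5 complexes (coloured). The axes leave out 10 of 12948 genes. The grey cloud falls from left to right, and the coloured points lie between −0.39 and 0.63.

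Genes that work beside the complexes gave few calls. Of 5 tested subunits or partners outside the symbol rule, among them Cyc1 (cytochrome c1 of complex III) and Atpif1 (an inhibitor of ATP synthase run in reverse), none was called by limma or had an unadjusted p under 0.05. Of 14 complex I assembly factors, 1 was lower, none higher (7.14%, beside 2.95% lower and 5.02% in either direction over all genes). It was Ecsit, at 512, 512 and 661 normalized counts in wildtype and 416, 380.1 and 359 in EVX1-Δfs EBs. The groups did not overlap (−0.53 ± 0.13, adjusted p = 0.0218 in limma, and 0.0615 with the replicate block, where the call was lost). The adjusted p was also above 0.05 after both trends were removed (0.0798) and when replicate 3 of wildtype (0.0819), replicate 2 of EVX1-Δfs (0.0515) or replicate 3 of EVX1-Δfs (0.0985) was left out, each in limma. Of 24 tested assembly factors of complexes II to V none was called by limma, and 4 had an unadjusted p under 0.05. DESeq2 called 2 of the 24 lower, beside 6.89% of all its genes in either direction. The 2 were Cox10, which makes heme O for complex IV, and Atpaf2, which assembles the F1 head. None of 16 electron carriers and adenine nucleotide exchange genes was called, with 2 at an unadjusted p under 0.05, both lower, and none of 24 genes of the tricarboxylic acid cycle and pyruvate entry, with 3. Neither edgeR nor DESeq2 called a gene of these 2 lists. The median of the last list was −0.11. In limma, 23.1% of all genes tested had an unadjusted p under 0.05. The shares were 16.7% for the complex II to V assembly factors and 12.5% for each of these 2 lists.

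Mitochondrial ribosomal proteins, which make the subunits encoded in mitochondrial DNA, gave 5 lower and none higher among 76. That is 6.58%, beside 2.95% lower and 5.02% in either direction over all genes. Their median fold change was −0.11, and 60 of 76 (78.95%) were below 0, beside 49.9% of all genes. In limma 9 had an unadjusted p under 0.05, all lower (11.8%, beside 12.4% lower and 23.1% in either direction). Groups did not overlap for 12, all lower (15.8%, beside 14.7% lower and 26.9% in either direction). Mrpl38 had 1269, 1081 and 1288 normalized counts in wildtype and 744, 920.3 and 769.9 in EVX1-Δfs EBs (−0.58 ± 0.12, adjusted p = 0.00825 in limma). Mrpl2 had 821, 773 and 929 and 555, 571 and 586 (−0.56 ± 0.12, adjusted p = 0.00903 in limma), and Mrps11 had 622, 678 and 847 and 564, 390.2 and 554 (−0.52 ± 0.15, adjusted p = 0.0424 in limma). The EVX1-Δfs libraries of all 3 were below all wildtype libraries. With the replicate block, 2 of the 5 calls, those of Mrpl38 and Mrpl2, remained, and after GC and length trends were removed 3 did, those of Mrpl38, Mrpl2 and Mrpl51. Leaving out a library gave 2 calls (wildtype replicate 3, EVX1-Δfs replicate 1 or 3), 3 (wildtype replicate 1 or EVX1-Δfs replicate 2) or 5 (wildtype replicate 2).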

How the data were processed

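Per the labels, mRNA of day 4 EBs was sequenced on an Ion Proton, reads were mapped to mm9 with TopHat2 and then TMAP, and reads per gene were counted with HTSeq. Versions and the gene annotation are not given in the sources used here. The authors deposited a non-negative signal per gene, namely counts divided by 1 factor per library, called normalized counts here. All values (100%, tolerance 0.001) came out as whole reads, and the recovered reads were used for the count tests.

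The planned main test, DESeq2 on raw counts, was replaced by limma 3.58.1 (trend, all 6 libraries, no covariates) on log2(value + 1), with genes of at least 10 in at least 3 libraries and Benjamini-Hochberg adjustment over 13136 genes. DESeq2 1.42.0 and edgeR 4.0.16 (R 4.3.3) were alternatives on the recovered reads, beside other pseudocounts, scalings and filters, voom, a replicate block, spline removal of GC and length trends, and each library left out. The scripts were tested on simulated data. Replicates were set up on different days per the series' design, so the number was taken to pair the libraries. Deviations of same-numbered libraries correlated at 0.111, 0.00933 and -0.101 over 13136 genes. P-values measure the spread between differentiations of 1 clone and its parent.

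Exons, length and GC came from GENCODE vM1 on NCBIM37 (mm9). Near-identical copies were blastn 2.17.0 matches of at least 95% identity over at least 50% of the transcript. Motif letters were matched in RefSeq promoters (GRCm38.p6); 3 genes were matched through another symbol, and 6 had more than 1 entry. Named genes were those called, the highest and lowest fold change per complex at a mean of at least 50, the highest level per kilobase, all Sdh genes, the paralogue families, called genes of other lists (at most 3 per direction), symbols that encode no subunit, and Evx1. The genes and lists were chosen with earlier results of these data known. 1 gene that the rule finds is counted but not reported here by name or value. Intervals and floors cover counting error or library spread only.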

Additional observations from a re-analysis of the deposited data

How the results depend on the processing

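The count of OXPHOS genes called was 0 higher and 1 lower. With pseudocounts of 4 and 16, voom, edgeR, DESeq2, upper-quartile scaling, scaling to total reads and the length trend alone removed, 1 was higher (Cox5a). DESeq2 gave 2 lower. The replicate block, GC and length trends removed, both together, the GC trend alone removed and scaling to total reads gave 0 lower. Leaving out 1 library gave 0 to 1 higher and 0 to 1 lower. With the replicate block as the pairing, 76 of all genes were higher and 146 lower, beside 273 and 387 without it. With GC and length trends removed 98 were higher and 180 lower. The median fold change was −0.012 with scaling to total reads and −0.15 to −0.03 over libraries left out. Signs turned only for genes that were not called in the main limma fit. Of these, Atp5l was called lower by limma without EVX1-Δfs replicate 3. With both trends removed, with and without the replicate block, log2 fold changes were −0.147 for Atp5s, 0.176 for Evx1 and −0.0416 for Ndufa1. With the GC trend alone removed they were −0.176 for Atp5s, 0.160 for Evx1 and −0.00354 for Sdhd. Evx1 was at 0.000334 in edgeR, 0.0126 with upper-quartile scaling, 0.0781 with scaling to total reads and 0.00939 with the length trend alone removed, and Ndufa4 at 0.0410 with scaling to total reads. Over libraries left out, values ran from −0.0999 to 0.383 for Atp5e, −0.349 to 0.0824 for Atp5g1, −0.699 to 0.0111 for Atp5l, −0.0594 to 0.495 for Atp5s, −0.0266 to 0.132 for Cox6a1, −0.0858 to 0.0756 for Evx1, −0.0138 to 0.265 for Ndufa1, −0.122 to 0.0492 for Ndufa4, −0.510 to 0.367 for Ndufa4l2, −0.0319 to 0.131 for Sdhd and −0.314 to 0.0760 for Uqcrq. Single-trend removal and scaling to total reads were chosen after seeing the data. The cause of these changes was not tested.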
